A study of Mus musculus with 6 samples.

Results

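Processed pseudogenes that carried reads in macrophages were examined together with the genes they were copied from. The members are the autosomal genes with the biotype processed pseudogene and a mean of at least 2 FPKM over 5 libraries, where FPKM is the number of fragments scaled to the gene's length and the library's total. They number 275 of the 54532 genes in the tables and of the 8476 autosomal processed pseudogenes, 2120 of which had a read in any library. They were chosen by their mean FPKM, so the level itself is given as a description. The rule does not use the comparison between the siRNA groups, but it was set with earlier results of these data known. A member was called inside a coding span where it lay wholly between the start and end of a protein-coding gene (80 members), and elsewhere otherwise (195 members).

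A processed pseudogene, or retrocopy, arises when the LINE-1 machinery copies a spliced messenger RNA into DNA and inserts it elsewhere in the genome. The copy lacks introns and usually the parent's promoter, and it decays with time unless it is young or kept by selection. Highly transcribed genes of the germ line, such as those for ribosomal proteins, cyclophilin A and glyceraldehyde-3-phosphate dehydrogenase, have many copies, and a short read from such a gene can match several places in the genome.

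The RNA came from C57BL/6 mouse macrophages that, per the sample labels, were derived from bone marrow. Macrophages are phagocytes of innate immunity. The cells had received a small interfering RNA (siRNA) against Cxcr4, which encodes a chemokine receptor (siCXCR4), or a negative-control siRNA (siNC). The column names in the tables begin with wt for siNC and with mko for siCXCR4, and the sources used here do not say what mko means. Whether the siCXCR4 cells had a knockdown, as labelled, or a knockout cannot be settled from them, and the groups are named by the labels. Both groups had then been exposed to lipopolysaccharide (LPS), the endotoxin of gram-negative bacteria, for 12 hours at 100 ng/ml. The title of the series speaks of monocyte-derived cells instead. No cells without LPS were compared, and the sources used here do not give the ages or numbers of mice. The labels do not say whether replicates came from different mice or dishes, so p-values rest on the spread between libraries, part of which may be technical. In bulk RNA, fewer cells of a type and less RNA per cell cannot be told apart.

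The labels give 3 samples per group, but the table of siNC replicate 3 held whole counts equal to the reads of siNC replicate 2 for every gene (19072 with reads). The pair was counted as 1 sample, which left 2 siNC and 3 siCXCR4 libraries of 18890751 to 21780840 reads in genes. Members took between 0.277% and 0.305% of these reads. Cxcr4, the siRNA's target, stood at 41.3 and 42.1 FPKM in the siNC libraries and at 31.1, 36.2 and 32.7 FPKM in the siCXCR4 libraries. Its groups did not overlap, but the log2 fold change of -0.32 ± 0.07 (SE) did not pass limma's test over all genes (adjusted p = 0.457), and an exact two-sided permutation test gave p = 0.1, the smallest it can give with 2 against 3 libraries. All 6 macrophage markers were at 1 FPKM or more. No B cell, fibroblast or dendritic cell marker reached 1 FPKM, and of 4 T cell markers 1 did, Cd4 at 1.49 FPKM. The summed level of 5 LPS-response genes, most of it from Il1b and Tnf, ran from 3502 to 3641 FPKM in siNC and from 2905 to 3323 FPKM in siCXCR4. The log2 fold change of Il1b was -0.36 (adjusted p = 0.494 by limma, 0.211 by edgeR and 0.0229 by DESeq2). The rest differed in direction, at -0.36 for Il6, -0.06 for Tnf, 0.0081 for Cxcl10 and 0.27 for Nos2, and their groups overlapped. Of 4 neutrophil markers 2 reached 1 FPKM, S100a8 and S100a9, while Ly6g and Mpo had means of 0.0323 and 0.0368 FPKM. The summed level of the 4, most of it from S100a9, ran from 68.4 to 70.7 FPKM in siNC and from 48.4 to 57.1 FPKM in siCXCR4. The part of these differences in the results was not tested.

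How alike a copy and its parent are bears on whether a read can be placed. The 120-base stretches below show 5 pairs in order of falling likeness, each from the ungapped part of the alignment with the most mismatches, 5′ to 3′, with mismatched bases in capitals. Sequences and positions are those of the GENCODE M21 annotation of build GRCm38, and bases are counted from 1 at the start of the member's transcript or of the parent's coding sequence. Gm10123 (chr9:96895658-96895777, plus strand) carries the coding sequence of Ppia, the gene of cyclophilin A, a peptidyl-prolyl isomerase. Gm10241 (chr16:20176893-20177012, minus strand) carries that of Sumo2, a small protein attached to other proteins. Over bases 1 to 120 each equals its parent, so 1 line stands for both.
Gm10123 and Ppia: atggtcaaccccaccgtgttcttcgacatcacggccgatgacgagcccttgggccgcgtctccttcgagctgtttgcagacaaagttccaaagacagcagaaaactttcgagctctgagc
Gm10241 and Sumo2: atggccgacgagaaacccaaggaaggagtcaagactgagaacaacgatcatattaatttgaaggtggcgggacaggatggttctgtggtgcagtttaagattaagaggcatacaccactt
Rps10-ps2 (chr16:20822168-20822287, minus strand) is a copy of Rps10, a protein of the small ribosomal subunit, and over bases 354 to 473 of both sequences it differs at 5 positions.
Rps10-ps2: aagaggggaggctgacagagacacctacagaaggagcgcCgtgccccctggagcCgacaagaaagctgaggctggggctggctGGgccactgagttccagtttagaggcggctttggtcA
Rps10: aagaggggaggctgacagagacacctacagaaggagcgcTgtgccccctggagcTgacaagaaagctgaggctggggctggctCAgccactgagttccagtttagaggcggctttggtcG
Gm5345 (chr8:40853867-40853986, minus strand) is a copy of Gapdh, a glycolytic enzyme, with 14 differences between bases 856 to 975 of the copy and bases 841 to 960 of the coding sequence.
Gm5345: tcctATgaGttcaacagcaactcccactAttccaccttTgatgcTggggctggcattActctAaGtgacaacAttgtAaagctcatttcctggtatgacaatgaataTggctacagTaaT
Gapdh: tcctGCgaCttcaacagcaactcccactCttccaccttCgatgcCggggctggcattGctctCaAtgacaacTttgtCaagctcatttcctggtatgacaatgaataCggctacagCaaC
Gm15568 (chr10:10343830-10343949, plus strand), a copy of the RNA helicase gene Eif4a1 inside an intron of Adgb, has 21 differences over bases 716 to 835 of both.
Gm15568: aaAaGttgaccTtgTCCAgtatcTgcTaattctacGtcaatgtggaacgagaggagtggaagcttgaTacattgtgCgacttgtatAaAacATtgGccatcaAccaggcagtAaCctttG
Eif4a1: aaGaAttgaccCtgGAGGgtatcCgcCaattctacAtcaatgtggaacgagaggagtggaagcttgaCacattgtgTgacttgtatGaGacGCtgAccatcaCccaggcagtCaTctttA

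A parent, taken as the protein-coding gene with the best alignment of its coding sequence, was found for 270 of 275 members, and these shared 210 parents. The annotation placed the remaining 5 members (Rab11b-ps2, Gm5518, Rpl21-ps8, Gm6457 and Gm16437) elsewhere than the tables do, so no sequence was aligned for them. The expressed copies were close to their parents: the median identity was 99.3%, 47 members were identical to the parent over the aligned part, 164 were at 99% or more, and 26 were under 95%. The reading frame was open in 156 members, meaning that at least 90% of the parent's coding sequence aligned with no frameshift and no stop codon inside it. In the other 114, a shift, a stop or a missing part broke it. Every run of 50 bases was also found in a transcript of another gene for 54 members, and for 49 of the 210 parents the same held of their coding sequence. Of 62 members whose name gives a coding parent before the suffix -ps, 58 had that parent by alignment.

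Not every gene typed as a processed pseudogene in the tables is one in other annotations. RefSeq's table for GRCm38.p6 held 239 members by symbol, of which 215 were typed pseudogene, 19 transcribed pseudogene and 5 protein-coding. The 5 were Gm12250, also called Irgb10, which encodes an interferon-inducible GTPase of host defence, together with Tma7-ps, Rpl34-ps1, Gm12657 and H3f3c, an H3.3-type histone gene. Gm12250 had the second-highest mean of all members, 207 FPKM, and its best match, the GTPase gene Gm5431, was only 67.5% identical. The other 4 RefSeq coding genes were at 2.61 to 14.0 FPKM and 98.5% to 99.4% identical to their parents.

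Members and parents were set side by side per length. The median ratio of the parent's FPKM to the member's was 3.61, and 69 members were under 10% of their parent. In 70 cases the member stood above its parent, in 40 of them by at least 2-fold. Rps10-ps2 was at 115 FPKM against 0.863 FPKM for Rps10, 133 times as high. Bambi-ps1, a copy of a decoy receptor gene of TGF-beta signalling, was at 37.1 FPKM against 0.488 FPKM, with 88.6% identity. Dynlt1-ps1, identical to a dynein light-chain gene listed as Dynlt1f and equally close to 2 other genes of that group, was at 42.5 FPKM against 1.65 FPKM. Gm5345 was at 22.5 FPKM against 1.14 FPKM for Gapdh, whose coding sequence had every 50-base run in other transcripts. Gapdh and Rps10 are widely expressed genes, yet in these tables each stood below its own copy, and the sources used here do not give how reads matching several places were assigned. Bambi-ps1 differed from these pairs in that neither the copy nor the coding sequence of Bambi had a 50-base run in another transcript.

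**Figure D1:**
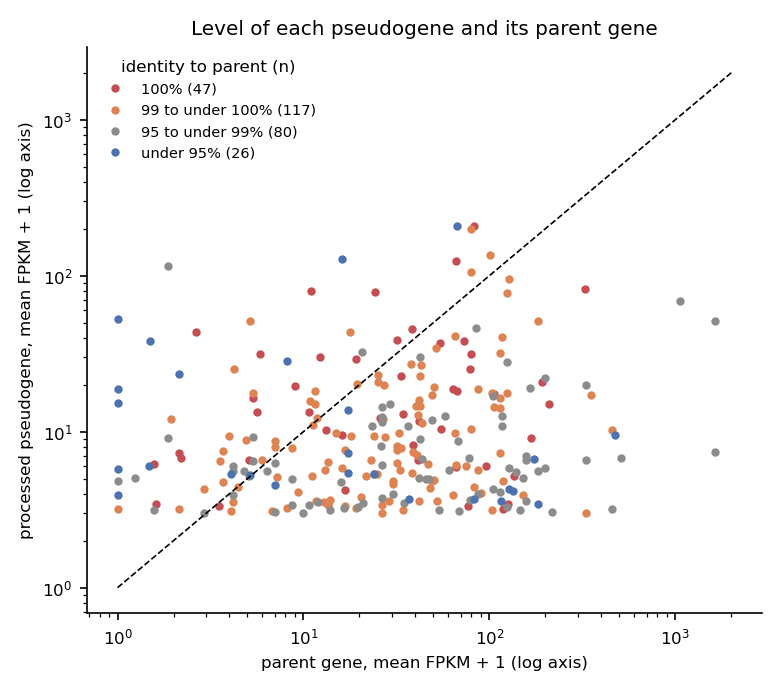
Mean FPKM + 1 over 5 libraries of each member (vertical, log axis) against that of its parent gene (horizontal, log axis) for the 270 members with a parent, coloured by identity. The dashed line marks equal levels, and 70 points lie above it, among them Rps10-ps2 at 115 against 0.863 FPKM.

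Among the 12 members of highest level, Gm10123 differed most between libraries. It stood at 343 and 341 FPKM in the siNC libraries and at 65.3, 86.9 and 201 FPKM in the siCXCR4 libraries. All 3 siCXCR4 libraries lay below both siNC libraries, but they spread from 65.3 to 201 FPKM, and the log2 fold change of -1.70 ± 0.53 (SE) did not pass limma's test over all genes (adjusted p = 0.512). Without siCXCR4 replicate 3, the highest of its group, edgeR on the whole reads gave a log2 fold change of -2.19 with an adjusted p of 0.000271, an alternative chosen after seeing the data. Over all 20 settings its adjusted p ran from 0.000271 to 0.916, and its log2 fold change stayed between -2.19 and -1.27. Gm12250, the GTPase gene, was nearly level, at 208 and 211 FPKM in siNC and 210, 203 and 204 FPKM in siCXCR4. Its groups overlapped, and the 95% interval of its log2 fold change ran from -0.14 to 0.09. The Rpl17 copy Rpl17-ps10 stood at 209 and 248 FPKM in siNC and at 228, 127 and 185 FPKM in siCXCR4. Only siCXCR4 replicate 2 was far below the rest.

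Gm9794, a copy of Rpl23 with 1 stop codon in its frame, was at 149 and 144 FPKM in siNC and at 115, 138 and 127 FPKM in siCXCR4. The groups did not overlap, and the log2 fold change was -0.21 ± 0.08 (SE; limma adjusted p = 0.513). Gm6545, 73.2% identical to Fam111a, a serine protease gene tied to DNA replication, was at 116 and 138 FPKM in siNC and 114, 134 and 136 FPKM in siCXCR4. Gm14303, identical to the ribosomal protein gene Rps29, was at 135 and 101 FPKM in siNC and at 92.1, 91.7 and 195 FPKM in siCXCR4, so siCXCR4 replicate 3 was the highest and the other 2 of its group the lowest. For Rps10-ps2 the values were 125 and 116 FPKM in siNC and 112, 126 and 93.9 FPKM in siCXCR4, and the groups overlapped.

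The other 5 of the 12 overlapped between groups in FPKM as well. The siNC mean of Rpl17-ps3 was 113 ± 5.10 FPKM (SD, n = 2) and its siCXCR4 mean 99.8 ± 11.2 FPKM (SD, n = 3). Eif4a-ps4, a copy of the helicase gene Eif4a1 with an open frame, had means of 92.5 ± 1.65 and 94.4 ± 7.26 FPKM. Tpt1-ps3, identical to the gene of the translationally controlled tumour protein, had means of 80.9 ± 0.814 and 81.5 ± 3.06 FPKM. The siNC libraries of the Sumo2 copy Gm10241 were far apart, at 43.3 and 83.7 FPKM, and the siCXCR4 libraries were at 91.0, 74.7 and 98.8 FPKM. Gm13835, a copy of the proteasome subunit gene Psma3 that covers 86.5% of its coding sequence, had means of 80.4 ± 2.33 and 76.4 ± 5.57 FPKM.

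**Figure D2:**
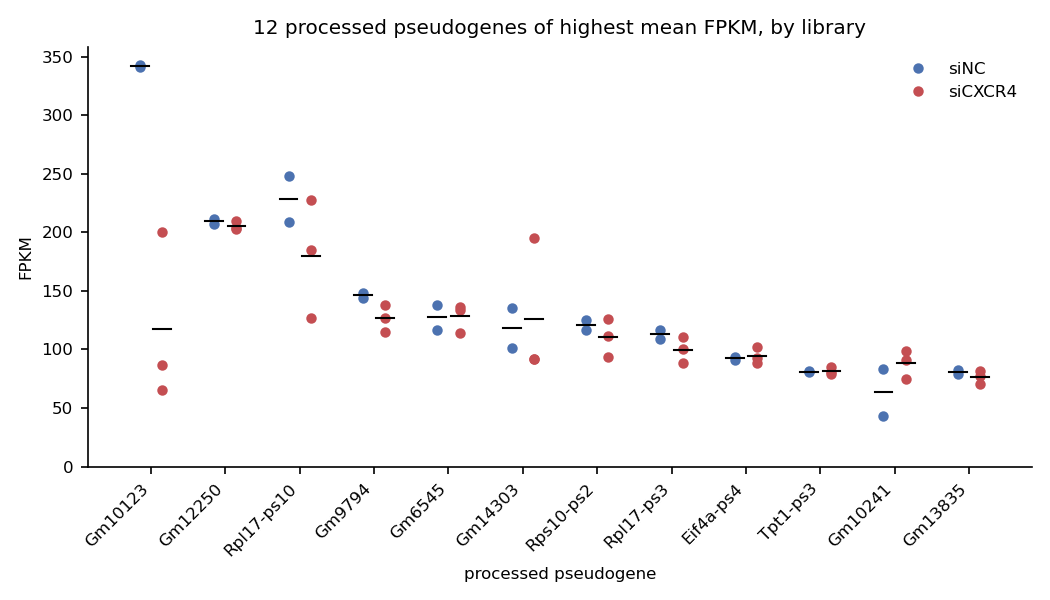
FPKM of the 12 members of highest mean in each library (points; blue siNC, n = 2; red siCXCR4, n = 3), with group means as bars. Gm10123 lies at 341 and 343 FPKM in siNC and at 65.3 to 201 FPKM in siCXCR4, while Gm12250 stays between 203 and 211 FPKM.

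The parent and the copy of an identical pair were then read together, in RPM, reads scaled to the library's total in genes and given per 1000000. Gm10123 had 173 and 171 RPM in siNC and 32, 42.7 and 99.6 in siCXCR4. Ppia had 253 and 208 in siNC and 333, 404 and 242.5 in siCXCR4, so the library with the second-fewest reads on the copy, siCXCR4 replicate 2, had the most on the parent. Summed with the 14 other processed pseudogenes of Ppia, the reads came to 431 and 382 in siNC and to 369, 452 and 348 in siCXCR4. The copy's highest library was 5.41 times its lowest, whereas that of the sum was 1.30 times its lowest, and the summed groups overlapped.

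Sumo2 and Gm10241 showed the same kind of split. Gm10241 had 12.7 and 24.5 RPM in siNC and 26.0, 21.4 and 28.6 in siCXCR4, and Sumo2 had 38.8 and 13.8 in siNC and 7.12, 23.5 and 4.39 in siCXCR4. The 2 libraries with the most Sumo2 reads, siNC replicate 1 and siCXCR4 replicate 2, had the fewest on the copy. The sum over 9 genes ran from 33.4 to 52.4 RPM, a ratio of 1.57, against 8.84 for Sumo2 alone. For Rpl17, siCXCR4 replicate 2 had 110 RPM on the parent, where the other libraries had 38.4 to 72, and 70.5 on Rpl17-ps10, where the others had 104 to 141. The sum over 26 genes of the Rpl17 set ran from 201 to 267 RPM. In Gm10039 and Atp5g1, a gene of the ATP synthase ring, the library with the most reads on the copy (siCXCR4 replicate 1, 14.0 RPM) had the fewest on the parent (10.8 RPM). Not every pair split in this way. Gm9794 and Rpl23 both had their fewest reads in siCXCR4 replicate 1, at 48.6 and 154 RPM. Both were lower in every siCXCR4 library than in siNC.

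**Figure D3:**
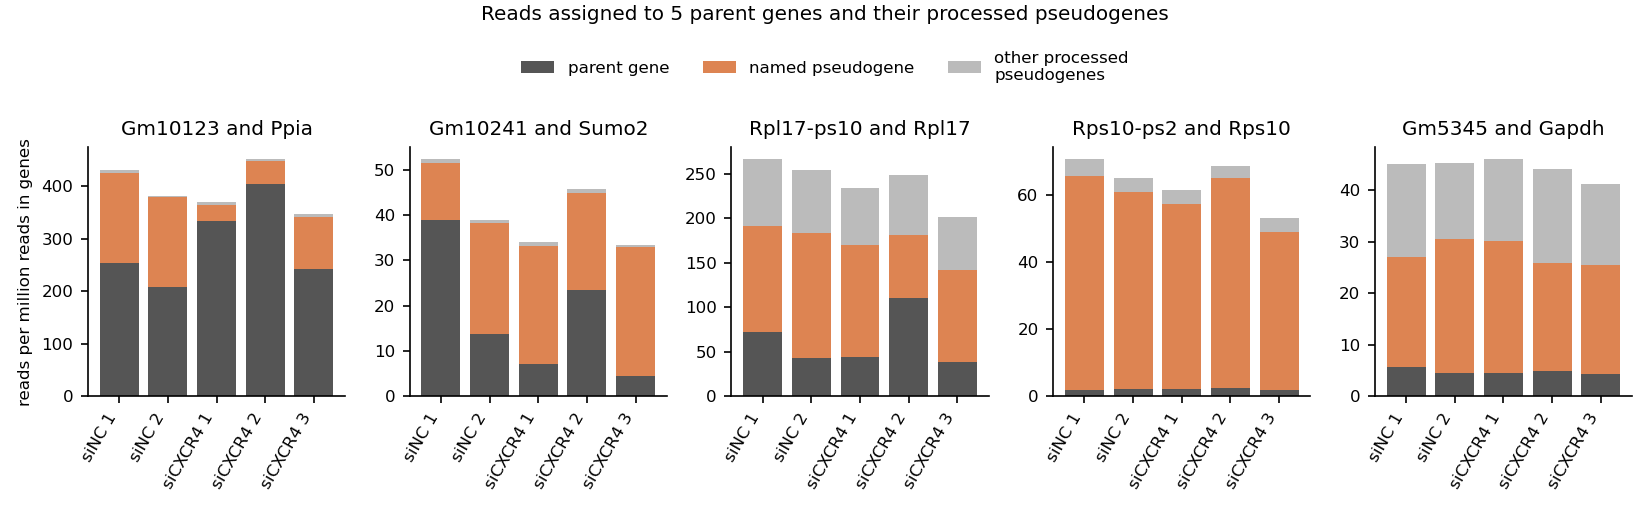
RPM (reads per 1000000 reads in genes) assigned to a parent gene (dark), the named pseudogene (orange) and the parent's other processed pseudogenes (light), stacked by library for 5 sets. In the Ppia set the orange part shrinks from 173 to 32 RPM while the stack stays between 348 and 452.

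Over the 101 members with a parent and at least 100 reads in every library, the highest library was at the median 1.31 times the lowest for the member alone and 1.17 times for the sum with its parent and other copies. The sum had the narrower range in 83 of the 101, where members of the same parent share 1 sum. A sum holds more reads than its parts, so some narrowing follows from counting alone. A range of 2-fold or more was found for 4 members alone: Gm10123, Gm10241, Gm10039 and Gm14303. In all 4 the sum's range was under 2-fold, at 1.30, 1.57, 1.26 and 1.56. These 4 were picked for a wide range of their own, so a narrower sum is no test. Their parents alone had ranges of 1.95 (Ppia), 8.84 (Sumo2), 1.67 (Atp5g1) and 1.57 (Rps29). For Rps29 the sum was thus about as wide as the parent. The reverse case was Gm8430, a copy of Rps27a, which encodes a ubiquitin fused to a ribosomal protein. Its own range was 1.62-fold and that of the sum 2.72-fold, and Rps27a itself ran from 42.2 to 140 RPM.

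Such swings were rare among genes in general. Of 8491 tested genes with at least 100 reads in every library, 14 (0.165%) had a highest FPKM at least 2 times the lowest, and their median ratio was 1.16. These 14 included the same 4 members and 4 parents (Rps27a, Rpl17, Rpl21 and Uqcr11). The 23 of the 101 members that shared all 50-base runs with other transcripts had a median range of 1.38-fold, and the 10 that shared under 25% had 1.24-fold. Several members of fewer reads swung more, among them Gm10705, a copy of the ubiquitin-conjugating enzyme gene Ube2l3. It stood at 2.56 and 23.4 FPKM in the siNC libraries and at 8.96, 4.81 and 2.04 FPKM in siCXCR4. Gm12191, a copy of Rpl30, stood at 7.16 and 33.1 FPKM in siNC and at 10.4, 17.6 and 30.5 FPKM in siCXCR4. In both members the siNC libraries alone differed by more than 4 times, and Gm10705, Gm12191 and the members with a range of at least 2-fold were singled out after their values were seen.

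**Figure D4:**
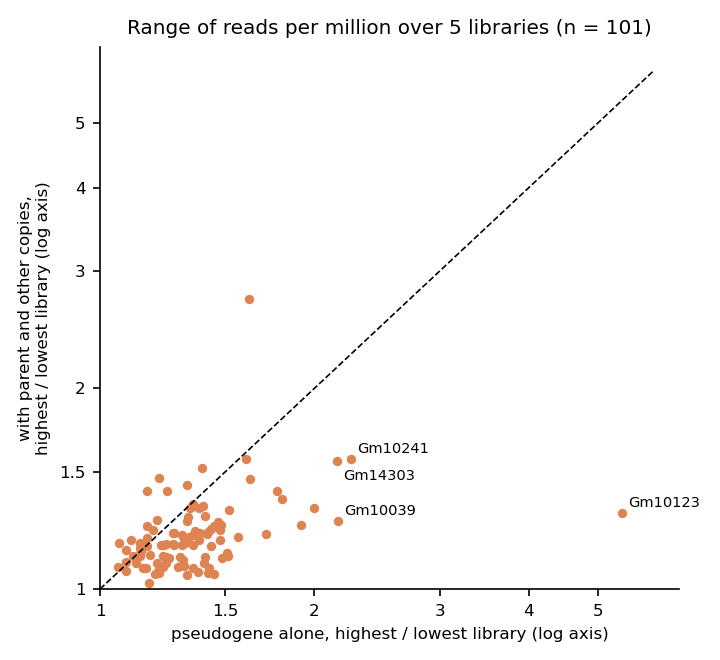
Highest divided by lowest library in RPM for each of 101 members alone (horizontal, log axis) and for its sum with the parent and the parent's other processed pseudogenes (vertical, log axis). Points below the dashed line of equality (83 of 101) have a narrower sum; Gm10123 lies at 5.41 and 1.30.

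No member passed the comparison of siCXCR4 with siNC. By limma 0 of 275 members and 0 of the 9943 genes tested had an adjusted p under 0.05, a share of 0%. By edgeR and DESeq2 on the whole reads 0 members passed too, where 0.133% and 0.234% of all genes tested did. With the copied siNC table counted as a library, limma called 1 member, Gm13192, and 0.0603% of all genes. By edgeR, leaving out siNC replicate 1 gave 2 members (0.0378% of all genes called), siNC replicate 2 gave 1 (0.15%), siCXCR4 replicate 2 gave 3 (2.45%) and siCXCR4 replicate 3 gave 2 (0.0235%), while leaving out siCXCR4 replicate 1 gave 0. At an unadjusted limma p under 0.05, 11 members were higher in siCXCR4 (4%, against 5.8% of all genes tested) and 17 were lower (6.18%, against 3.54%). At the same unadjusted threshold, edgeR had 7 of 272 members higher and 13 lower, against 571 and 674 of 12794 genes. DESeq2 had 3 of 275 members higher and 9 lower, against 382 and 355 over all genes. In 19 members both siNC libraries lay below all siCXCR4 libraries (6.91%, against 17.9% of all genes), and in 25 they lay above (9.09%, against 9.92%). The library totals behind FPKM held 2.80% and 2.15% of reads outside the genes in siNC. In siCXCR4 they held 0.00033%, 0.312% and 1.37%. Relative to reads in genes, this offset lowers FPKM in siNC, and its part in these shares was not tested. The members' log2 fold changes spread more widely than those of all genes, with an SD of 0.27 against 0.15, and their median 95% half-width was 0.33 against 0.17. Their reads were fewer, with a median of 58 in a member's lowest library against 530 over all genes tested.

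The 6 members of lowest p among those higher in siCXCR4 had adjusted p-values of 0.457 to 0.507 by limma, and in none did the groups overlap. Rpl19-ps11, a copy of the ribosomal protein gene Rpl19, was at 13.3 and 15 FPKM in siNC and at 16.7, 18.1 and 17.9 FPKM in siCXCR4, a log2 fold change of 0.29 ± 0.07 (SE). Rpl19 itself was at 365 and 373 FPKM in siNC and at 350, 372 and 294 FPKM in siCXCR4. The Ube2v2 copy Gm6565 was at 4.04 and 3.59 FPKM in siNC and at 4.93, 7.30 and 6.08 FPKM in siCXCR4, a log2 fold change of 0.55 ± 0.14. This copy of a ubiquitin-conjugating enzyme variant gene lies in an intron of Shq1, a small nucleolar RNA assembly factor, whose log2 fold change was -0.02.

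Bambi-ps1 was at 31.5 and 32.1 FPKM in siNC and at 42.4, 44.5 and 34.7 FPKM in siCXCR4, a log2 fold change of 0.33 ± 0.11. It is the only one of the 6 with no 50-base run shared with another transcript. Gm8399 and Gm12715 are both copies of the cytoplasmic actin gene Actg1, at 98.6% and 99.6% identity, and had log2 fold changes of 0.40 ± 0.14 and 0.19 ± 0.07. Actg1 stood at 408 and 426 FPKM in siNC and at 485, 470 and 482 FPKM in siCXCR4, so copies and parent were all higher in every siCXCR4 library. The parent missed limma's threshold over all genes as well, at an adjusted p of 0.486. Gm4204, a copy of the histone chaperone gene Nap1l1, was at 11.7 and 12.1 FPKM in siNC and at 13.0, 16.1 and 17.6 FPKM in siCXCR4, a log2 fold change of 0.35 ± 0.12, where Nap1l1 had -0.07.

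Of the 6 of lowest p among those lower in siCXCR4, again with no overlap between groups, 4 were copies of ribosomal protein genes. Gm13192, a copy of Rps28, was at 3.49 and 4.15 FPKM in siNC and at 0.883, 1.49 and 1.26 FPKM in siCXCR4, a log2 fold change of -1.13 ± 0.13 (limma adjusted p = 0.389). This rests on 4 to 17 reads per library. Rps28 was lower in every siCXCR4 library too, at 21.8 and 21.1 against 14.7, 16.9 and 16.3 FPKM, a log2 fold change of -0.40 ± 0.07. It missed the threshold by limma (adjusted p = 0.389) and passed by edgeR (adjusted p = 0.0412) and DESeq2 (adjusted p = 0.0494). Gm10709, a copy of Rpl29, had a log2 fold change of -0.85 ± 0.19 from 9 to 37 reads, where Rpl29 had -0.03. Gm10154, a copy of Rpl34, had -0.48 ± 0.13, where Rpl34 had -0.30. Gm13680, a copy of Rps4x with a shifted frame, had -0.22 ± 0.07, where Rps4x had -0.14.

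The other 2 lie inside genes. Gm15568, the Eif4a1 copy with 87.2% identity, was at 3.77 and 4.72 FPKM in siNC and at 2.5, 2.76 and 2.80 FPKM in siCXCR4, a log2 fold change of -0.50 ± 0.09 (limma adjusted p = 0.389). Only 0.859% of its 50-base runs were found in other transcripts, and the log2 fold change of Eif4a1 was 0.04. The surrounding gene Adgb, which encodes androglobin, was at 12.9 and 13.1 FPKM in siNC and at 10.1, 9.84 and 9.98 FPKM in siCXCR4, a log2 fold change of -0.35 ± 0.05. Adgb missed the threshold by limma (adjusted p = 0.389) and passed by edgeR (adjusted p = 0.018) and DESeq2 (adjusted p = 0.00226), where Gm15568 had adjusted p-values of 0.190 and 0.507. Host and member run on opposite strands. Without a stated strand setting, reads of unspliced Adgb RNA over the member cannot be told from the member's own. Their part in its values was not tested. Gm48583, a fragment identical to 47.9% of the coding sequence of the cold-inducible RNA-binding protein gene Rbm3, was at 42.9 and 43.8 FPKM in siNC and at 36.5, 34.2 and 30.9 FPKM in siCXCR4. Its log2 fold change was -0.35 ± 0.07, that of Rbm3 -0.16 and that of its host Dapk1, a death-associated kinase, -0.07.

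Members inside a coding span were set against the rest. The 80 inside had a median log2 fold change of -0.0029 (SD 0.22), with 40 members on each side of 0. For the 195 elsewhere the median was -0.00041 (SD 0.29), with 97 above and 98 below 0. Over all 9943 genes tested the median was 0.01 (SD 0.15). Both medians moved by more than their own size when single libraries were left out, from -0.03 to 0.03 inside and from -0.02 to 0.01 elsewhere. Inside, 3 members (3.75%) had all siCXCR4 libraries above siNC and 6 (7.5%) below, and elsewhere 16 (8.21%) and 19 (9.74%). Over all genes tested these shares were 17.9% and 9.92%.

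Medians by position within the host all lay within 0.04 of 0. By the annotation 74 of the 80 lay in introns alone and 6 touched an exon, and their medians were -0.01 and 0.04. On the strand of a host lay 34, with a median of 0.0087, and 46 lay only opposite to one, with a median of -0.01. The host was under 1 FPKM for 29, whose median was 0.0051, and at 1 FPKM or more for 51, whose median was -0.01. In 52 of the 80 the member stood above its host per length. Where member and host were both tested (51), their log2 fold changes had the same sign in 25. Across these 51 pairs, which share their libraries and may share some reads, Pearson's r was 0.26 and Spearman's rho 0.21. Outside coding spans, 24 further members overlapped a gene of another kind.

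The 8 inside members of highest level mostly stood far above their hosts. Gm10241, the Sumo2 copy described above, lies in an intron of Yeats2, a reader of histone acylation, which was at 1.53 to 1.85 FPKM. Gm6136, a copy of Rpl6, was at 79.4 and 79.2 FPKM in siNC and at 78.1, 81.5 and 65.9 FPKM in siCXCR4, inside the exonuclease gene Dis3l2 at 1.29 to 1.64 FPKM. Yeats2 was slightly higher in every siCXCR4 library, with a log2 fold change of 0.10, while the groups of Gm10241, Gm6136 and Dis3l2 overlapped. Mpc1-ps, a copy of a mitochondrial pyruvate carrier gene, was at 53.6 and 51.2 FPKM in siNC and at 46.2, 59.4 and 40.7 FPKM in siCXCR4. It stood above its host, the zinc finger gene Zfp839, at 4.31 FPKM, and above Mpc1 itself, at 4.15 FPKM.

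Gm3788, a copy of the actin-binding thymosin gene Tmsb10 with a shifted frame, had means of 49.9 ± 2.51 FPKM in siNC and 49.97 ± 7.98 FPKM in siCXCR4, inside Lrba at 0.320 FPKM. Rpl14-ps1 had means of 47.6 ± 4.05 and 43.8 ± 3.05 FPKM inside the cation channel gene Trpm4 at 3.75 FPKM. Rps16-ps2 had means of 38.4 ± 3.17 and 36.3 ± 0.407 FPKM, inside the adhesion receptor gene Adgrd1, which was at 0.0122 FPKM or less in every library. Rpl38-ps2 was at 36.8 and 28.6 FPKM in siNC and at 28.5, 36.6 and 50.5 FPKM in siCXCR4, inside Gm11077, which is listed at 0 in all 5 libraries. Both of these last copies are identical to their parents over the aligned part, and every 50-base run of each is found in other transcripts. The eighth, Gm48583 in Dapk1, was described with the members of lowest p.

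By the parent's family, ribosomal protein genes led with 80 of 275 members (29.1%). These 80 split evenly in the comparison, with 38 above 0 and 42 below it. Their median log2 fold change was -0.04. At an unadjusted limma p under 0.05, 2 were higher (2.5%, against 5.8% of all genes tested) and 7 lower (8.75%, against 3.54%). Their parents did not split evenly: of 51 tested, 48 were below 0, with a median of -0.18, while over all genes tested 4336 of 9943 were below 0. In 15 of the 52 parents (28.8%, against 9.92% of all genes tested) all siCXCR4 libraries lay below siNC. At an unadjusted limma p under 0.05, 11 were lower (21.6%, against 3.54%) and 0 higher. After adjustment limma called 0 of the 51, edgeR called Rps28, and DESeq2 called Rps28 and Rpl35a (adjusted p = 0.0494 for each), the latter named for its call. The parents' median level also moved by library. Relative to the log2 mean of the 5 libraries it stood at 0.16 and 0.04 in siNC and at -0.07, 0.08 and -0.20 in siCXCR4. In siCXCR4 replicate 2 it was thus above siNC replicate 2. Taking the parent from the name gave 34 ribosomal members with a median of 0.05.

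**Figure D5:**
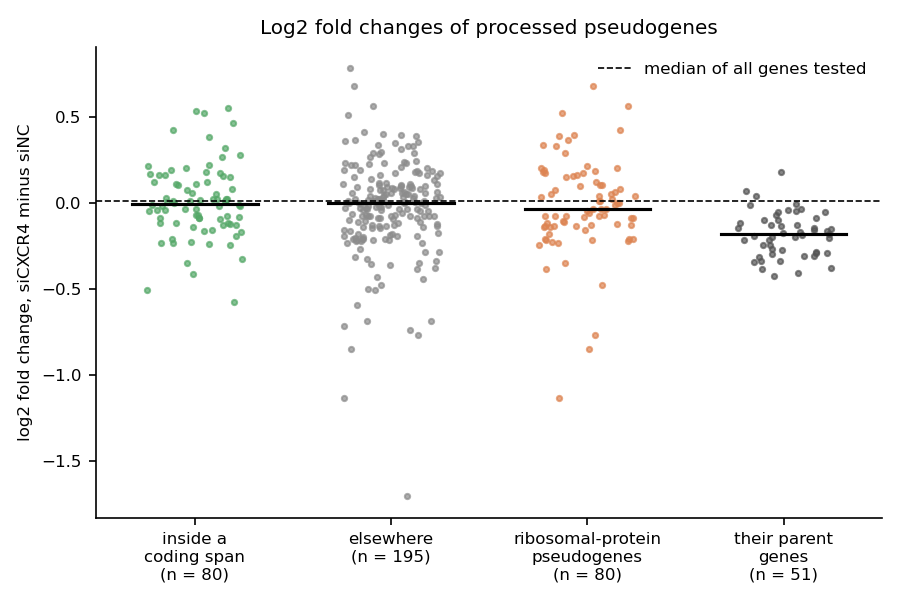
Log2 fold change (siCXCR4 minus siNC, log2(FPKM + 1) scale) of each member inside a coding span and elsewhere, of the 80 members with a ribosomal protein parent and of 51 of those parents; horizontal bars are medians and the dashed line is the median of all genes tested. The parents sit lower, at a median of -0.18, than the copies, at -0.04.

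The other families were small. Of 11 copies of respiratory chain and ATP synthase genes 9 were below 0, with a median log2 fold change of -0.23. Over all genes tested 4336 of 9943 were below 0. Relative to the log2 mean of the 5 libraries, the family's median level stood at 0.18 and 0.09 in siNC. In siCXCR4 it stood at -0.04, 0.08 and -0.17. The Atp5l copy Gm10221 was at 34.9 and 32.3 FPKM in siNC and at 26.6, 32.2 and 26.9 FPKM in siCXCR4, with no overlap and a log2 fold change of -0.23 (limma adjusted p = 0.526). The Ndufa12 copy Gm15920 was at 12.5 and 12.7 FPKM in siNC and at 11, 12.1 and 7.27 FPKM in siCXCR4, again with no overlap (limma adjusted p = 0.665). These 2 were named after their values were seen, as the members of the family whose groups did not overlap. They are 18.2% of the 11, where 9.92% of all genes tested had all siCXCR4 libraries below siNC. Copies of chromatin protein genes (11) had a median of -0.03, of translation factor genes (8) 0.02, of glycolytic genes (6) 0.06, of cytoskeletal genes (5) -0.0090, and of chaperone and cyclophilin genes (4, with Gm10123) 0.06. The 145 members of other families had a median of 0.0051, with 75 above and 70 below 0.

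Medians by reading frame and by shared sequence also lay close to 0. Those with an open frame had a median log2 fold change of -0.02 and those without 0.0078. The median was 0.02 for the 54 members with every 50-base run found elsewhere and 0.0020 for the 21 with under 25%. Their SDs were 0.37 and 0.20. Over the 254 members tested together with their parent, the log2 fold changes of member and parent had the same sign in 141. Pearson's r was -0.13 and Spearman's rho 0.01 across these pairs, which share libraries and may share some reads. Copies of 1 parent were found on both sides of 0. Of the 5 copies of Rpl7a, 3 were above 0, from 0.22 to 0.42, and 2 below, at -0.13 and -0.04, and the groups of all 5 overlapped.

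At the level threshold of 2 FPKM, the members just inside were Gm11942, Gm8566 and Rps3a2, at means of 2.03, 2.005 and 2.002 FPKM, and those just outside were Gm10074, Gm10179 and Gm19221, at 1.99, 1.96 and 1.93 FPKM. In its lowest library each of these genes had between 6 and 42 reads.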

How the data were processed

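The authors deposited 1 table of 54532 genes per sample. In 5 tables the deposited values were read as FPKM, because multiplying by gene length gave whole multiples of a library's smallest step (tolerance 0.05). No unit stands in the headers, so RPKM is possible too. The deposited table of siNC replicate 3 held unnormalized read counts. Per the submitters' processing notes the build was mm9, but 98.3% of the genes shared with the GENCODE M21 annotation had their GRCm38 position, so coordinates are GRCm38. The sources used here do not give the aligner, counting tool, strand setting or handling of multi-mapping reads.

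The comparison used limma 3.58.1 (trend, robust; R 4.3.3) on log2(FPKM + 1) of 9943 genes whose mean reached 1 FPKM. Its two-sided p-values were Benjamini-Hochberg adjusted, with a threshold of 0.05. A fold change on this scale understates the change of low genes. Of 102 symbols with several entries the entry with the highest mean was kept. On whole reads worked back from FPKM, edgeR 4.0.16 (quasi-likelihood, TMM) and DESeq2 1.42.0 were alternatives, as were other scalings, pseudocounts, filters, a replicate block and each library left out. On simulated data over 9943 genes, limma found 20.7% of the changes of 1.25-fold, 81.3% of those of 1.5-fold and 94.7% of those of 2-fold. Of its calls, 10.1% were false. For edgeR the shares found were 53.3%, 92.7% and 99.3%, with 11.5% of calls false. Changes were planted only in genes above a cut on mean reads, so the shares found leave out the genes of fewest reads. They are for the comparison of siCXCR4 with siNC. Recovery among the members alone was not tested. The median of reads in a gene's lowest library was 58 for members and 530 over all genes tested. Reads had no molecular identifiers, so read numbers are not numbers of molecules. Ranges of reads between libraries hold differences between the libraries as well as counting error.

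Parents were found by aligning the member's GENCODE transcript to coding sequences with BLAST 2.17.0 (at least 50% of the member aligned). Genes were named by rule: Cxcr4; the 12 members of highest mean; the 6 of lowest p in each direction; any past the threshold; the 8 of highest mean inside a coding span with their hosts; 3 on each side of 2 FPKM; and the parents of these. The members and lists were chosen with earlier results of these data known. Processed pseudogenes outside the autosomes were not counted as members.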

Additional observations from a re-analysis of the deposited data

How the results depend on the processing

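The median 95% half-width of a member's log2 fold change was 0.33, and 17 members had under 10 reads in a library. Among named parents and hosts, edgeR and DESeq2 called Rps28 and Adgb, which limma did not. The 0 genes called became 17 by edgeR, 31 by DESeq2 and 6 with the siNC copy counted as a library. They ranged from 0 to 2 by limma with each library left out in turn, the 2 without siCXCR4 replicate 2, and from 0 to 312 by edgeR with each library left out, an alternative chosen after seeing the data (312 without siCXCR4 replicate 2, 20 without siNC replicate 2, 5 without siNC replicate 1 and 3 without siCXCR4 replicate 3).

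The 0 members called became 1 with the copy counted as a library, Gm13192 (log2 fold change -1.16, limma adjusted p = 0.0482; 0.0482 to 0.790 over its alternatives). By edgeR with each siCXCR4 library left out they ranged from 0 to 3: Gm9794, Rpl17-ps3 and Gm10709 without siCXCR4 replicate 2, and Gm10123 and Gm9824 without siCXCR4 replicate 3. Leaving out a siNC library left 1 in that group, so only log2 fold changes by edgeR are given. Without siNC replicate 1 they were -1.23 for Gm21378 and -1.58 for Gm10145. Without siNC replicate 2 it was 1.01 for Gm10241. The adjusted p of each of these 9 members, Gm13192 among them, reached at least 0.790 in some setting, and all 9 kept 1 direction throughout. Under the other planned scalings, pseudocount, filters and tests 0 members were called. For other named genes and parents 820 values under the alternatives were unchanged in direction and call, or moved by less than 1 SD between replicates, and 9 moved by more. Of these 9, 8 came from leaving out a siNC library: Gm10241, Rps16-ps2, Mpc1 and Rps29 each moved without either one. The median inside coding spans ranged from -0.0338 to 0.0286 with each library left out. The median of ribosomal members was 0.0475 with parents by name.

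Replicate numbers do not pair these samples by any label, and same-numbered libraries had correlations of -0.04 and -0.11 between their deviations. With the replicate block 0 genes and 0 members were called, and the inside median was -0.0287.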

Other observations

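Outside the autosomes, 20 further processed pseudogenes reached a mean of 2 FPKM. The highest was Rpl21-ps15 on chromosome X, a copy of a large-subunit ribosomal protein gene, at 72.4 and 67.8 FPKM in siNC and at 67.7, 67.3 and 62.9 FPKM in siCXCR4. All siCXCR4 libraries lay below siNC, with a log2 fold change of -0.09 (limma adjusted p = 0.664). Vcp-rs, also on chromosome X and related to the AAA ATPase gene Vcp, was at 29.1 and 28.2 FPKM in siNC and at 33.3, 33.5 and 34.8 FPKM in siCXCR4. All siCXCR4 libraries lay above siNC, with a log2 fold change of 0.23 (limma adjusted p = 0.438). Both were named after their values were seen.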
